A study of Mus musculus with 6 samples.

Results

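Phospholipase C (PLC) enzymes make the IP3 that the deleted kinase consumes, and 10 of their genes are described here, of which 9 are among the 22180 genes with a probe set of their own in this series: the beta isoforms Plcb1, Plcb3 and Plcb4, the gamma isoforms Plcg1 and Plcg2, the delta isoforms Plcd1, Plcd3 and Plcd4, and the eta isoforms Plch1 and Plch2. They are a listed set of isoforms that cleave the membrane lipid PIP2, and the list was made with earlier results of these data known. Other PLC genes, Plcb2, Plce1 and Plcz1 among them, were not on it and are given after the members. For each gene the probe set that the array annotation pairs with that symbol alone was taken, which gave values for those 9. The probe set of Plcd4 is also paired with Zfp142, so no value is given for Plcd4. Each of the 9 had 1 such probe set. For other genes with several, the probe set with the highest mean over all arrays stood for the gene. The data are log2 intensities of amygdala RNA from GeneChip Mouse Gene 2.0 ST arrays, which read most mouse transcripts with sets of short probes. There were 3 arrays of wild-type (WT) mice and 3 of IP3K-A knockout (KO) mice, in which the gene Itpka is disrupted, all male littermates with no treatment named, on a C57BL/6N background aged 10 to 15 weeks. Each array held RNA pooled from several mice, so the pools, and not single animals, are the replicates. In such bulk tissue fewer cells of a type and less RNA per cell cannot be told apart.

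All PLC enzymes cut PIP2 into IP3, which releases calcium from internal stores through IP3 receptors, and diacylglycerol (DAG), which stays in the membrane and activates protein kinase C. The subfamilies differ in what switches them on: beta isoforms are activated by the Gq proteins of metabotropic receptors, gamma isoforms by tyrosine kinases such as the BDNF receptor, and delta and eta isoforms mainly by calcium itself. IP3K-A phosphorylates IP3 to IP4 and thereby ends part of this signal in neurons. The comparison asks whether the transcripts of the enzymes upstream of IP3 differed in the amygdala when this kinase was missing.

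No PLC gene differed between KO and WT past the test over all probe sets. The fit was limma's moderated test of KO minus WT on 23521 probe sets with 1 symbol, with Benjamini-Hochberg adjustment over all of them, and the adjusted p of the 9 genes lay between 0.738 and 0.947. Of all those tested, 2 probe sets (0.0085%) passed an adjusted p under 0.05. In KO 4 of the 9 were higher and 5 lower. Their median log2 difference was −0.02, and that over all genes was −0.0002. The 95% intervals of all 9 genes lay between 0.834-fold and 1.32-fold of WT, so larger shifts in either direction lay outside the intervals of these arrays. None of the 9 passed the study's cutoffs (more than 1.2-fold, with an unadjusted p below 0.1), which 738 probe sets (3.14%) passed by limma and 452 (1.92%) by the methods' t-test. At an unadjusted limma p under 0.05 there was 1 of the 9, Plch1, where 6.66% of all probe sets passed. In 3 of the 9, Plcb1, Plcb4 and Plch1, every KO pool lay above every WT pool, and in 0 every KO pool lay below. The same held for 7.48% of all probe sets in the higher and 6.15% in the lower direction, and Plcb1 and Plcb4 are next to each other in the genome. In an exact permutation test 3 pools against 3 cannot give a two-sided p under 0.1.

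**Figure D1:**
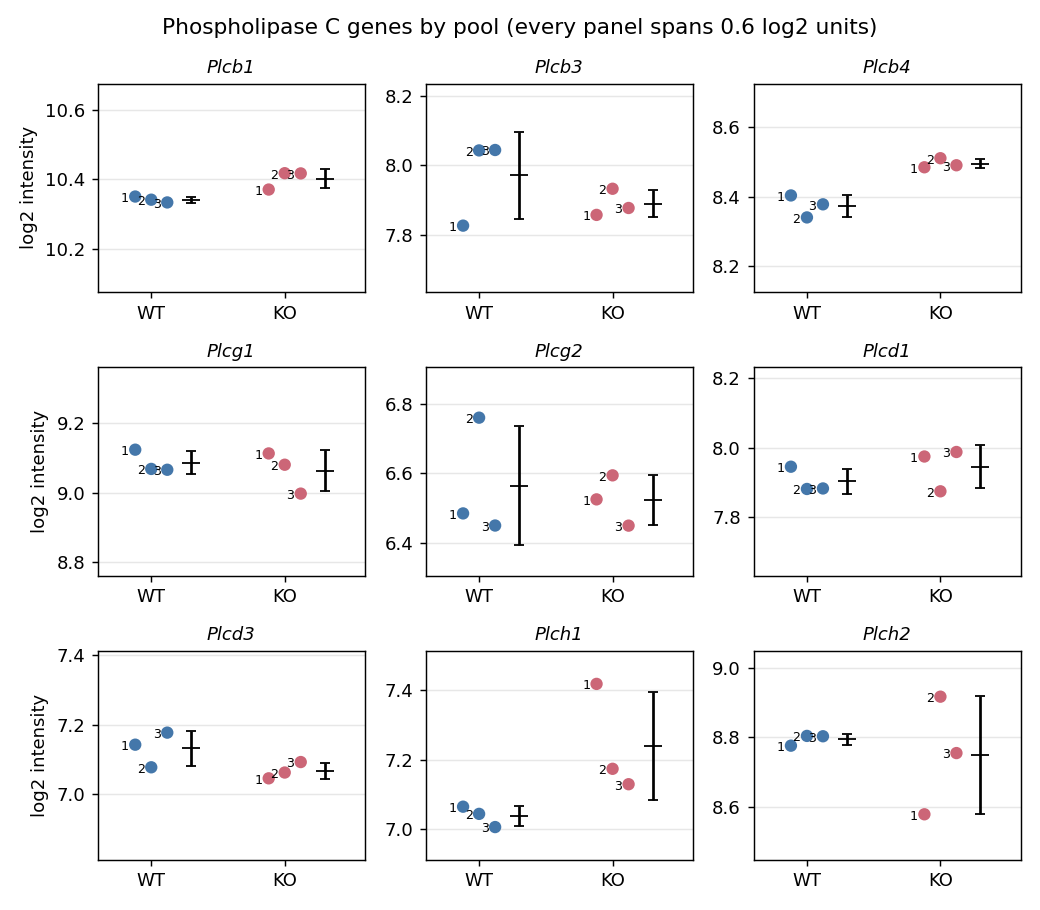
Log2 intensity of the 9 measured PLC genes in each pool (points, numbered by pool; blue WT, red KO), with the group mean and SD (n = 3 pools) beside the points; every panel spans the same range. The KO pools lie above the WT pools in Plcb1, Plcb4 and Plch1, and the groups overlap in the other 6 genes.

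The targeted gene and the makeup of the tissue were checked first. Itpka lay between 8.85 and 8.96 in the WT pools and between 6.76 and 6.96 in the KO pools on the log2 scale, 4.05-fold lower in KO (adjusted p = 2.6e-04 from limma). The sources used here do not say whether its probes fall inside the deletion. Of the markers listed, all 6 of neurons and 7 of 8 of the central amygdala had a mean above the median of the probe sets tested, as did all 9 measured of striatal projection neurons, which abound in the tissue next to the amygdala. The library that stood apart was KO 1: the mean of 6 choroid plexus markers was 8.63 there, between 7.03 and 7.21 in the WT pools and 7.42 and 7.13 in KO 2 and KO 3. The striatal mean was 9.62, 9.68 and 9.19 in WT 1 to WT 3 and 9.09, 9.08 and 9.54 in KO 1 to KO 3, and the oligodendrocyte mean was lowest in KO 2 at 9.17, against 9.46 to 9.65 in the other pools. All 9 measured striatal and all 7 measured oligodendrocyte markers were lower in KO, and all 6 of the choroid plexus were higher. The mean of 5 oligodendrocyte precursor markers lay between 8.551 and 8.624 in WT and between 8.524 and 8.549 in KO, without overlap. Of these markers, 1 was higher in KO and 4 were lower. The thalamus list, given with Plcb4 below, also had pool means that did not overlap, with KO higher. None of the markers passed the adjusted test. By limma, the study's cutoffs were passed by 1 striatal and 3 oligodendrocyte markers, lower in KO, by 3 choroid plexus markers, higher in KO, and by 0 of the other lists.

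**Figure D2:**
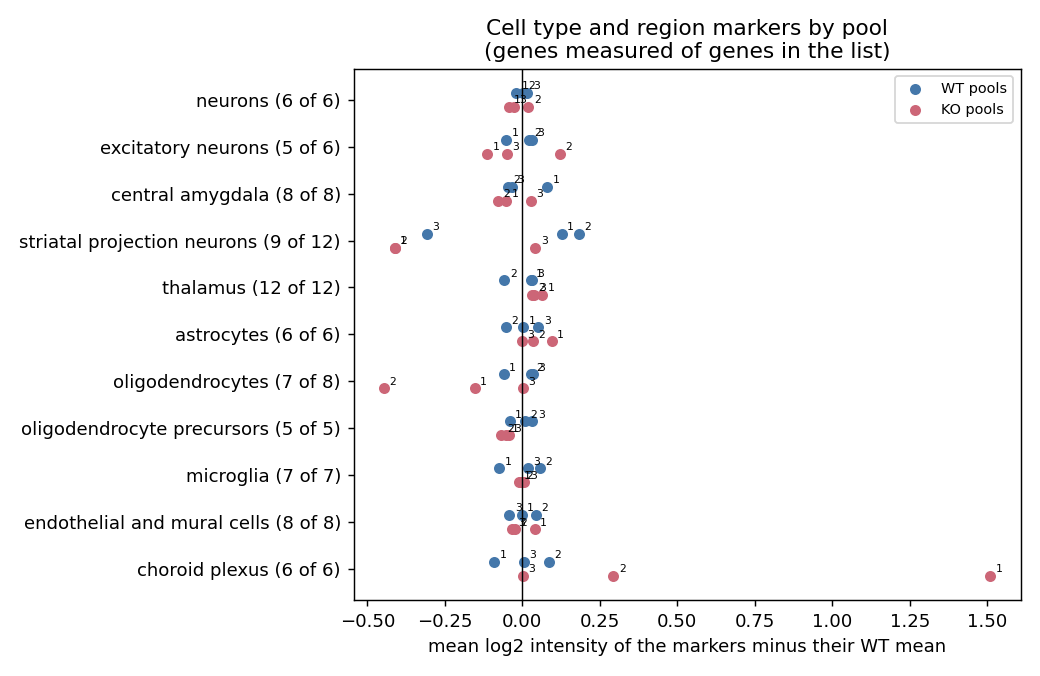
Mean log2 intensity of cell type and region markers in each pool (points, numbered by pool; blue WT, red KO) minus the mean of the WT pools. The choroid plexus markers of KO 1 stand apart from all other pools, and the striatal markers vary within both genotypes, with all 9 lower in KO on average.

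Plcb1 and Plcb4 read slightly higher in every KO pool than in any WT pool, without passing the adjusted test. Plcb1, the main Gq-driven isoform of cortex, hippocampus and striatum, read 10.35, 10.34 and 10.33 in the WT pools and 10.37, 10.42 and 10.42 in the KO pools. Every KO pool was above every WT pool, but the gap between the nearest pools was smaller than the SD of 0.03 among the KO pools. The log2 difference was 0.06 (SE 0.05, 95% interval −0.07 to 0.19, adjusted p = 0.83 from limma), or 1.04-fold. Plcb4, known for its strong expression in thalamus and cerebellum, read 8.40, 8.34 and 8.38 in WT and 8.48, 8.51 and 8.49 in KO. Here the KO pools lay close together and clear of the WT pools. The log2 difference of Plcb4 was 0.12 (SE 0.05, 95% interval −0.01 to 0.25, adjusted p = 0.741 from limma), or 1.09-fold. Both genes had small unadjusted p-values by the methods' t-test, 0.021 for Plcb1 and 0.0037 for Plcb4, which uses each gene's own spread, and limma, which draws that spread toward that of all genes, gave 0.304 and 0.0606. After adjustment neither passed by either test. The mean of 12 thalamus markers lay between 7.778 and 7.867 in WT and between 7.869 and 7.901 in KO, so these groups did not overlap either. Of these 12 markers, 7 were higher in KO and 5 lower. The part of thalamic tissue in the value of Plcb4 was not tested.

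Plcb3, a broadly expressed beta isoform, had a difference of the opposite sign with overlapping groups. It read 7.83, 8.04 and 8.04 in the WT pools and 7.86, 7.93 and 7.88 in the KO pools. WT 1 was the lowest of all 6 pools, while WT 2 and WT 3 were the highest. The log2 difference of Plcb3 was −0.08 (SE 0.08, 95% interval −0.26 to 0.10, adjusted p = 0.837 from limma), and it was −0.15 without WT 1.

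Plcb1 and Plcb4 lie on chromosome 2, as Itpka does, and are direct neighbors among its protein-coding genes. In the order of RefSeq's protein-coding genes (GRCm38.p6), Plcb1 is 203 and Plcb4 204 genes after Itpka. Plcg1 follows at 454 genes after Itpka, and Plcb2, a beta isoform of blood cells, lies 32 genes before it. Of these 4 PLC genes of chromosome 2, only Plcb1 and Plcb4 had all KO pools above all WT pools. Plcb2 read 6.64, 6.59 and 6.45 in WT and 6.67, 6.61 and 6.70 in KO, with KO 2 below WT 1. Its log2 difference was 0.10 (SE 0.07, adjusted p = 0.794 from limma), and it was 0.047 without WT 3.

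The promoter windows of the 3 genes whose KO pools all lay above the WT pools are printed because these are the members whose groups did not overlap. Each is RefSeq's sequence (GRCm38.p6) from 250 bases before to 50 after an annotated transcript start, 5′ to 3′ on the strand of the gene. Capitals mark matches, on either strand, to the GC box GGGCGG, the site of Sp1-type factors, and to the CCAAT box CCAAT.
Plcb1, chr2:134785914-134786213 (+ strand): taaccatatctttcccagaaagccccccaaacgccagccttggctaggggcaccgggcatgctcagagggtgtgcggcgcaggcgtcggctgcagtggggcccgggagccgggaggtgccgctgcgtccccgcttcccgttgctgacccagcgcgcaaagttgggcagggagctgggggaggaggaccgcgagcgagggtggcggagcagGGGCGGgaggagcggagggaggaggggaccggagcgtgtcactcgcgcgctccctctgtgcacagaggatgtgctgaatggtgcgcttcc
Plcb4, upstream start, chr2:135659297-135659596 (+ strand): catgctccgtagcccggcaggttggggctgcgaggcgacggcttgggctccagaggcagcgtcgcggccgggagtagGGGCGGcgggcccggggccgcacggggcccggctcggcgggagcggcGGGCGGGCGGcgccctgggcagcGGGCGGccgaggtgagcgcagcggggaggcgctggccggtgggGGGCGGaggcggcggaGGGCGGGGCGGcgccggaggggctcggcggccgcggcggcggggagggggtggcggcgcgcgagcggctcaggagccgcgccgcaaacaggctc
Plcb4, downstream start, chr2:135764588-135764887 (+ strand): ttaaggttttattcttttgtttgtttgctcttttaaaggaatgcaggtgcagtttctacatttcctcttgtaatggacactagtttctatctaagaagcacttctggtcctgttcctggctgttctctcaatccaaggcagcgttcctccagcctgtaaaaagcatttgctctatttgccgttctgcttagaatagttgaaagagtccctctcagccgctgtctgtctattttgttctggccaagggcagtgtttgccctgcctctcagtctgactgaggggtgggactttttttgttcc
Plch1, upstream start, chr3:63899413-63899712 (- strand): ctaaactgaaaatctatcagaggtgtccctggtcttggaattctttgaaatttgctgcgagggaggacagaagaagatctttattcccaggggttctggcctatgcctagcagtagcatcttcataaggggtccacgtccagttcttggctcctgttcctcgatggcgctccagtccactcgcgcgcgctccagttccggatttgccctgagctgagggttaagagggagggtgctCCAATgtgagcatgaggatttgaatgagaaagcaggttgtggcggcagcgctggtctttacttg
Plch1, downstream start, chr3:63851236-63851535 (- strand): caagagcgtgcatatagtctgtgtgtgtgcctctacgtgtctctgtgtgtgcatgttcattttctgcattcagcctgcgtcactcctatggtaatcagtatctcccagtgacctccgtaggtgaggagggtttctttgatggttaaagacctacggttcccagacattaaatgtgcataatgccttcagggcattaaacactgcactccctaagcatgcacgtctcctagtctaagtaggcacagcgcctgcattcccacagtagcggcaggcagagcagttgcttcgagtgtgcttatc
The upstream window of Plcb4 stood out by composition. It had a GC content of 84.0%, 50 CpG dinucleotides and 7 GC box matches, some of which overlap, and 99.1% of the 32851 windows of the mouse table had fewer CpGs. The downstream window of Plcb4 had a GC content of 44.3%, 3 CpGs and 0 GC boxes, so both windows of this gene differ widely. The window of Plcb1 had a GC content of 69.7%, 26 CpGs and 1 GC box. The windows of Plch1 had 11 and 9 CpGs and no GC box, and the upstream one held 1 CCAAT box. The median over all windows was 52.7% GC and 7 CpGs. The 10 genes had 15 windows in all. A GC box was found in 10 of these and in 35.7% of all windows, and a CCAAT box in 6 of these and in 37.4% of all windows. The TATA box TATAAA (13.6% of all windows) and the cyclic AMP response element TGACGTCA (1.79%) were in none of the 15, and the E-box CACGTG (7.15%) was in 1, that of Plcg2. The 3 genes thus had no motif of this set in common. A match describes letters in the window and not a bound site.

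The tyrosine kinase-driven isoforms did not differ beyond the spread of the pools. Plcg1, the broadly expressed isoform that neurotrophin receptors recruit, read 9.12, 9.07 and 9.07 in WT and 9.11, 9.08 and 8.998 in KO. The groups overlapped, and the lowest pool was KO 3. The log2 difference of Plcg1 was −0.02 (SE 0.06, 95% interval −0.16 to 0.12, adjusted p = 0.947 from limma), and its sign turned to 0.011 without KO 3. Plcg2, which in brain is mainly a microglial gene, read 6.48, 6.76 and 6.45 in WT and 6.52, 6.59 and 6.45 in KO. WT 2 was the highest pool, and the lowest WT pool and the lowest KO pool were level. Plcg2 had a log2 difference of −0.04 (SE 0.09, 95% interval −0.26 to 0.18, adjusted p = 0.936 from limma) and 0.06 without WT 2. WT 2 also had the highest mean of 7 microglial markers, 8.09, where the other pools lay between 7.96 and 8.06, and their part in the value of Plcg2 was not tested. Plcg2 was the 1 measured isoform whose mean fell under the median of the probe sets tested, and the other 8 lay above it.

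The calcium-driven delta isoforms had small differences of opposite sign. Plcd1, which binds PIP2 tightly through its PH domain, read 7.95, 7.88 and 7.88 in WT and 7.98, 7.88 and 7.99 in KO. KO 2 was at the level of the lower WT pools. Plcd1 had a log2 difference of 0.04 (SE 0.06, 95% interval −0.10 to 0.19, adjusted p = 0.898 from limma). Plcd3 read 7.14, 7.08 and 7.18 in WT and 7.05, 7.06 and 7.09 in KO. Only WT 2 and KO 3 kept the groups of Plcd3 from being separate. The log2 difference was −0.07 (SE 0.06, 95% interval −0.20 to 0.07, adjusted p = 0.826 from limma; two-sided exact permutation p = 0.2).

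The eta isoforms, which are found mainly in neurons and respond to very low calcium, held the largest difference and the largest spread among KO pools. Plch1 read 7.06, 7.04 and 7.01 in the WT pools and 7.42, 7.17 and 7.13 in the KO pools. The WT pools were close together, KO 1 stood well above the others, and KO 2 and KO 3 lay just above WT. The log2 difference of Plch1 was 0.20 (SE 0.09, 95% interval 0.003 to 0.40, unadjusted p = 0.048, adjusted p = 0.738 from limma), or 1.15-fold. Without KO 1 it was 0.11 (SE 0.06). KO 1 is also the pool with the high choroid plexus markers, where Ttr, the transport protein that this tissue secretes, read 13.0, against 9.18 to 10.42 in the other pools, and their part in the value of Plch1 was not tested. Plch2 read 8.78, 8.80 and 8.80 in WT and 8.58, 8.92 and 8.76 in KO. Its KO pools lay both above and below all WT pools, with an SD of 0.17 in KO and 0.02 in WT. Plch2 had a log2 difference of −0.04 (SE 0.09, 95% interval −0.25 to 0.16, adjusted p = 0.928 from limma), which turned to 0.04 without KO 1. In KO 1 Plch1 was at its highest and Plch2 at its lowest of the 6 pools.

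**Figure D3:**
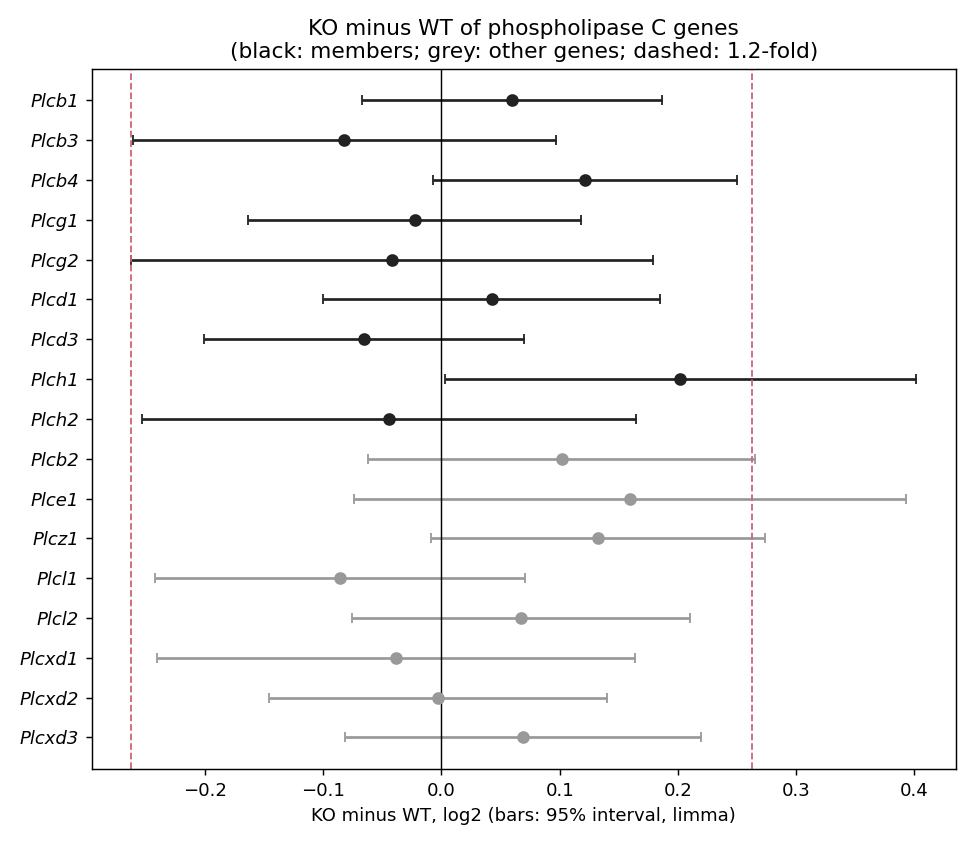
KO minus WT on the log2 scale (points) with the 95% interval of limma (bars) for the 9 measured members (black) and 8 other PLC and PLC-like genes (grey); dashed lines mark 1.2-fold. The interval of Plch1 is the 1 that lies above 0, from 0.003 to 0.40, and no point lies beyond 1.2-fold.

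The spread within a genotype set what could be seen. Across the 9 genes the SD of 3 pools ran from 0.01, for Plcb1 in WT, to 0.17, for Plcg2 in WT and Plch2 in KO, and it was larger in KO in 5 of 9. The moderated SE of the difference ran from 0.05 to 0.09, where the median over all genes was 0.08. Of the alternatives, 9 can move the difference itself: each pool left out, centered arrays, repeated quantile normalization and array weights. Direction was kept under these 9 by Plcb1 (0.03 to 0.08), Plcb3 (−0.15 to −0.05), Plcb4 (0.10 to 0.14), Plcd1 (0.02 to 0.08), Plcd3 (−0.09 to −0.04) and Plch1 (0.11 to 0.26). It was not kept by Plcg1, Plcg2 and Plch2.

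**Figure D4:**
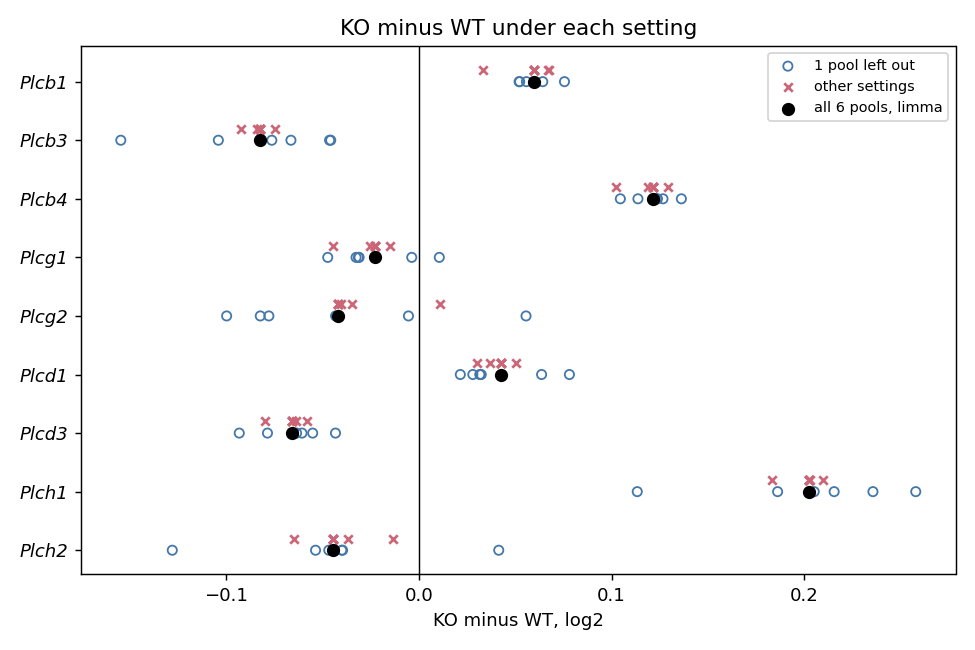
KO minus WT on the log2 scale for each measured member with all 6 pools (black), with 1 pool left out (open circles) and under other settings of the analysis (crosses). Plcb1, Plcb4, Plcd1 and Plch1 stay above 0 throughout, Plcb4 between 0.10 and 0.14. Plcb3 and Plcd3 stay below 0, while Plcg1, Plcg2 and Plch2 lie on both sides of 0.

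The remaining PLC and PLC-like genes did not pass the test either, in the fit on all 6 pools. In KO 5 of the 8 were higher and 3 lower, and their median log2 difference was 0.07. Plcz1, the sperm isoform that starts calcium waves in the egg, read 5.21, 5.09 and 5.18 in WT and 5.30, 5.31 and 5.27 in KO, levels under the median of the probe sets tested. Its groups did not overlap, and its log2 difference was 0.13 (SE 0.06, adjusted p = 0.741 from limma). Plce1, an isoform driven by Ras-type GTPases, read 8.21, 7.88 and 8.12 in WT and 8.34, 8.13 and 8.22 in KO. Its log2 difference was 0.16 (SE 0.10, adjusted p = 0.778 from limma) with overlapping groups, and it was 0.065 without WT 2. The inactive relatives Plcl1 and Plcl2, which bind IP3 without making it, had log2 differences of −0.09 and 0.07. The differences of Plcxd1, Plcxd2 and Plcxd3 lay between −0.04 and 0.07.

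Among genes that act on PLC or on its products, the differences were about as many up as down. Of 121 listed genes other than Itpka and the PLC genes, 108 had a probe set of their own. In KO 53 of these were higher and 55 lower. Their median log2 difference was −0.002, and 0 passed the adjusted test (3 at an unadjusted limma p under 0.05, or 2.78%, where 6.66% of all probe sets passed). The study's cutoffs were passed by 2 of the 108, or 1.85% against 3.14% of all probe sets, by limma, and by 1 with the methods' t-test. Every KO pool lay above every WT pool in 6 of the 108 and below in 4, where 7.48% and 6.15% of all probe sets did.

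Upstream of the beta isoforms, 15 of 26 Gq-coupled receptor genes were higher and 11 lower (median 0.02). Trhr, the receptor of thyrotropin-releasing hormone, was the 1 past the study's cutoffs by limma, and not by the methods' t-test. It read 8.78, 8.48 and 8.77 in WT and 9.24, 9.07 and 8.71 in KO, with KO 3 among the WT pools. The muscarinic receptor gene Chrm3 read 8.48, 8.44 and 8.44 in WT and 8.60, 8.67 and 8.56 in KO. Its groups did not overlap, and its log2 difference was 0.16 (SE 0.06, adjusted p = 0.729 from limma). The serotonin receptor gene Htr2c, which the choroid plexus expresses strongly, had a log2 difference of 0.18 and was highest in KO 1 at 10.33. It was 0.095 without KO 1, and the part of that tissue was not tested. Of 9 genes of Gq proteins and their regulators, 3 were higher and 6 lower. Rgs3, which shortens Gq signals, read 7.42, 7.43 and 7.42 in WT and 7.30, 7.29 and 7.28 in KO, with no overlap and the pools of each group very close together. Its log2 difference was −0.13 (SE 0.05, adjusted p = 0.738 from limma). The kinase gene Grk3, which desensitizes receptors, had a log2 difference of 0.10 and Rgs16 of −0.13 (−0.070 without WT 1), neither past the test. Of 18 genes of the tyrosine kinase arm, 6 were higher and 12 lower. Btk, the kinase that activates PLC gamma 2 in B cells and myeloid cells, read 5.78, 6.02 and 5.90 in WT and 5.72, 5.42 and 5.71 in KO, under the median level of the arrays. All KO pools of Btk were below all WT pools, and its log2 difference was −0.28 (SE 0.10, adjusted p = 0.729 from limma), past the study's cutoffs by both tests. The difference of Btk was −0.18 without KO 2, and that of Trhr was 0.22 without KO 1. Lcp2, an adaptor of immune cell receptors, had a log2 difference of −0.13 and Fgfr2 of 0.17 (0.089 without KO 1), neither past the test.

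On the substrate and product side no gene passed the study's cutoffs. Of 19 genes that supply or turn over PIP2, 10 were higher and 9 lower, all between −0.10 and 0.08. Pitpnc1, a lipid transfer protein gene, marked the lower end, Cds1, which makes the CDP-DAG for new phosphoinositides, the upper end, and the PIP2 phosphatase gene Synj1 was at 0.07. Itpr2 and Itpr3, the IP3 receptor genes with a probe set of their own, had log2 differences of 0.09 (0.025 without WT 2) and −0.01. The sign of Itpr3 turned without WT 1, WT 3 or KO 3. Another, dimmer probe set of Itpr3 was at −0.21 with overlapping groups. The IP3 receptor gene Itpr1 had no probe set of its own, so no value is given for it. Of 6 genes of IP3 breakdown other than Itpka, 4 were higher and 2 lower, among them Inpp5j at −0.12, Inpp1 at 0.12 and the lithium-sensitive phosphatase gene Impa1 at 0.09 (0.046 without WT 3). Of 18 DAG effectors, 11 were higher and 7 lower, and the largest differences, of Rasgrp2 at −0.21 and Prkch at −0.19, had overlapping groups. Without KO 1 Rasgrp2 was at −0.073, and without KO 2 Prkch was at −0.102. Prkch, a protein kinase C gene, read 7.78, 7.77 and 7.40 in WT and 7.44, 7.28 and 7.66 in KO. It was high in WT 1, WT 2 and KO 3, the pools in which the striatal mean was also high, and the part of that tissue was not tested. Rasgrp1, a DAG-activated Ras exchange factor, was at 0.07. Of 10 genes that remove DAG, 3 were higher and 7 lower, from −0.10 to 0.05. Those with the smallest p were Dgki at −0.08, Dgkq at −0.06 and the DAG lipase gene Daglb at −0.07, which was −0.0085 without WT 3. None of these genes passed the adjusted test.

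**Figure D5:**
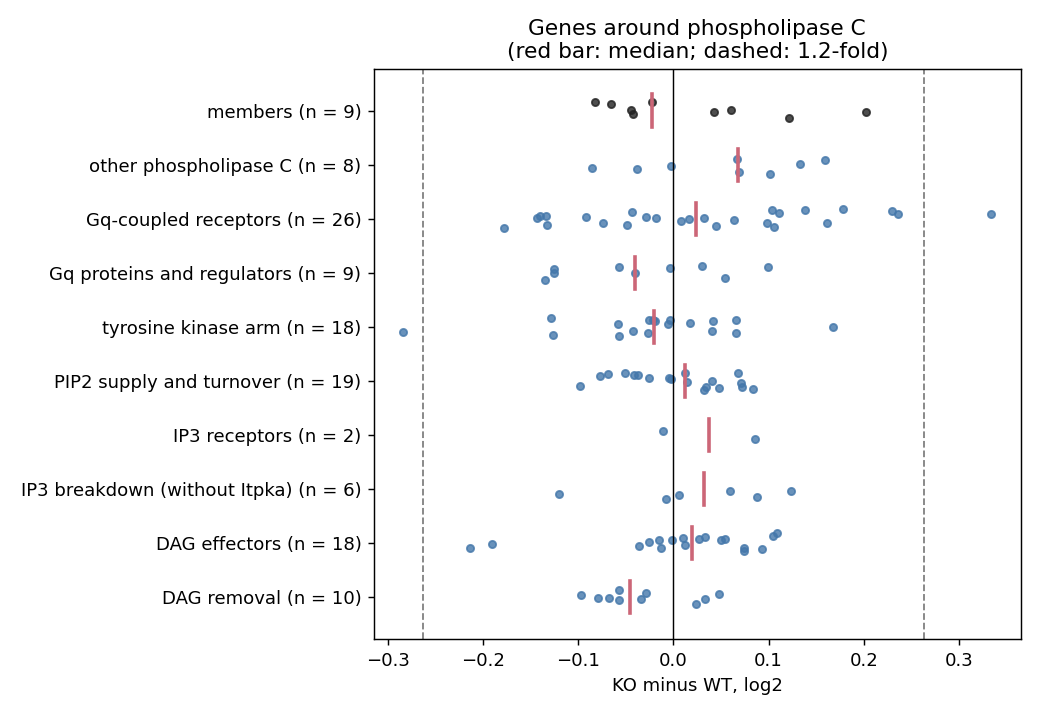
KO minus WT on the log2 scale for each gene with a probe set of its own (points), by its place around PLC, with the median of each list (red bar) and 1.2-fold (dashed). The points of every list lie on both sides of 0, and only Btk and Trhr lie beyond 1.2-fold.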

How the data were processed

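Amygdala RNA came from 3 WT and 3 KO pools, each on 1 array. Pools drew on 6 to 8 mice of each genotype, from 3 litters, per the methods, which do not say whether for each pool. The deposited table holds log2 values for 41345 probe sets, for which the authors used GCOS and RMA, that is background correction, quantile normalization and a summary per probe set, according to the submitters' processing notes, with no version named. Quantile normalization acts on the probes, before they are summarized, and can hide a shift of all genes; array medians of the deposited values lay between 6.49 and 6.52. The array annotation gave 23521 probe sets 1 symbol, 1820 several, and 16004 none; the last 2 kinds were not tested. KO minus WT was fitted with limma 3.58.1 in R 4.3.3, without covariates, and p-values were adjusted over the 23521. Exact permutation tests used SciPy 1.17.1. The fits were tested on simulated data. Alternatives were the methods' t-test, eBayes with trend and robust estimation, centering, repeated quantile normalization, a filter at the median level, all probe sets, a replicate block, array weights and each pool left out. The genes named are the members, the other PLC genes, the 3 with the smallest p in each pathway list and those past the study's cutoffs; Ttr was added after its values were seen. The members and lists were chosen with earlier results of these data known. Groups came from the sample titles.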

Additional observations from a re-analysis of the deposited data

How the results depend on the processing

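None of the 9 members was called at an adjusted p under 0.05, and none passed the study's cutoffs, under any alternative; the other PLC genes were counted with the pathway genes. The count of probe sets called, 2 in the fit reported, was 0 with the methods' t-test (1510 at an unadjusted p under 0.05), 10 with trend and robust estimation, 7 with centered arrays, 6 with repeated quantile normalization, 1 above the median level, 50 with all probe sets of the table, 7 with array weights, and 1 to 6 with 1 pool left out (6 without WT 1, 2 without WT 2, 1 without any other). The methods' t-test gave Itpka an adjusted p of 0.242. Pathway genes past the cutoffs numbered 2, but 1 with the methods' t-test, above the median level and with array weights, and 0 to 4 with 1 pool left out (4 without WT 1, WT 3 or KO 3, 2 without KO 1, 1 without KO 2, 0 without WT 2). Among members, Plcg1 turned to 0.011 without KO 3 (range without 1 pool −0.047 to 0.011), Plcg2 to 0.011 with array weights and 0.056 without WT 2 (−0.0996 to 0.056), and Plch2 to 0.042 without KO 1 (−0.128 to 0.042); the cause was not tested. Plcg2 has no value above the median level. With the replicate number as a block, 1 probe set was called and no call on a member or Itpka changed. Deviations of same-numbered pools from their group means correlated at −0.03, 0.09 and −0.01 over all probe sets tested. The methods do not say whether the numbers mark shared litters, and these correlations cannot settle it. Taking the mean of a member's probe sets was not run, since each has 1. Each pool left out leaves 2 against 3.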

Other observations

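The stretch of chromosome 2 around Plcb1 and Plcb4, and the genes named in it, were chosen after their values were seen. Of the 20 nearest protein-coding genes, 10 on each side, 19 had a probe set of their own, of which 13 were higher in KO and 6 lower (median log2 difference 0.04). Every KO pool lay above every WT pool in 4 of the 19, and in 0 every KO pool lay below, where 7.48% and 6.15% of all probe sets did. None passed the adjusted test (lowest adjusted p = 0.729 from limma), and 1, Mkks, passed the study's cutoffs. Mkks, a chaperonin-like gene of Bardet-Biedl syndrome, read 7.67, 7.67 and 7.68 in WT and 8.15, 7.81 and 8.06 in KO, a log2 difference of 0.34. Snap25, a vesicle fusion gene of nerve terminals, read 13.13, 13.05 and 13.12 in WT and 13.16, 13.18 and 13.18 in KO, with no overlap. The LAMP family gene Lamp5 had the opposite sign, with a log2 difference of −0.15 and overlapping groups. Neighbors on a chromosome are not independent samples, and no test of the stretch was run.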
